A study of Mus musculus with 13 samples.

Results

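The genes described here were 10 components and outputs of the circadian clock: the activators Arntl (also called Bmal1), Clock and Npas2, the repressors Per1, Per2 and Per3, the nuclear receptors Nr1d1 and Nr1d2, and the output factors Dbp and Tef. They were listed by name, with earlier results of these data known. Each was read from the probe set that named it alone, with the highest mean where a gene had several. A probe set was found for 9 of the 10, 1 each, among 19938 genes measured, and 8 passed a filter on dim genes that left 14953 genes to test. Npas2 had no such probe set and has no value here. Dbp lay under the filter, at the 13.9th percentile of mean level, and its tests come from a fit of all 19938 genes without the filter. Per1 passed it narrowly, at the 25.2nd percentile.

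Liver RNA came from mice of 14 days in 5 groups on 13 arrays. The untreated group (2 arrays) and the wild type group after diethylnitrosamine (2 arrays) carried floxed Rb1 and no Cre recombinase. Diethylnitrosamine (DEN) is a carcinogen that hepatocytes convert to a DNA-alkylating form, and was given once into the peritoneum at 20 mg/kg, 24 hours before the liver was taken, while untreated animals had saline. The other groups, all given DEN, were heterozygous (2 arrays, 1 functional Rb1 allele and 1 floxed allele with Cre, tagged LOH in a second label field), N750F (5 arrays, an Rb1 point mutant whose other allele the sample labels do not name) and knockout-labelled (2 arrays, floxed Rb1 with Cre). Cre was expressed under the albumin promoter, so deletion is restricted to cells that use it, which in liver are the hepatocytes, and exon 19 was flanked by loxP. The labels do not give the time of day at which livers were taken, nor say that arrays of a group are separate animals, so p-values measure the spread between these samples.

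The clock of a liver cell is a feedback loop. CLOCK, or its relative NPAS2, pairs with ARNTL and switches on genes with E-box elements, among them Per1, Per2, Per3, Nr1d1, Nr1d2, Dbp and Tef. PER proteins, with CRY proteins, then block the activators, and NR1D1 and NR1D2 (REV-ERB alpha and beta) repress Arntl through ROR elements, so that in adult mouse liver Arntl messenger RNA is high when Nr1d1, Dbp and Per3 are low. Dbp and Tef encode PAR-domain factors that bind D-boxes in many liver genes for drug and lipid metabolism. Per1 and Per2 also answer glucocorticoid, cyclic AMP and feeding signals directly.

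The promoters of Arntl, Per3, Nr1d1 and Tef are shown because each holds an element of this loop and each gene was called in at least 1 comparison below. They are RefSeq sequences of build GRCm38.p6, 300 bases each, from 250 bases before to 50 bases after a gene start, 5′ to 3′ on the gene's strand, with the element in capitals. The Arntl window (chr7:113207261-113207560, + strand) has a ROR element, TAGGTCA, starting 31 bases after the gene start. The Per3 window (chr4:151044616-151044915, - strand) has 2 D-boxes, TTATGTAA, starting 205 and 158 bases before it. The Nr1d1 window (chr11:98775328-98775627, - strand) has an E-prime box, CACGTT, on the opposite strand, 28 bases before it. The Tef window (chr15:81802423-81802722, + strand) has an E-box, CACGTG, 127 bases before it.
Arntl promoter: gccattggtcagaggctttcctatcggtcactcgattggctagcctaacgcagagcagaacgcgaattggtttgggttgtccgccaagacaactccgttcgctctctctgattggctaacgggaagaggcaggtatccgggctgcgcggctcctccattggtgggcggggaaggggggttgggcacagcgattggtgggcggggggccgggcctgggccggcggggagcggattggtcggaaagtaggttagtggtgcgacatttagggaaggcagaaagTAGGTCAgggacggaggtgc
Per3 promoter: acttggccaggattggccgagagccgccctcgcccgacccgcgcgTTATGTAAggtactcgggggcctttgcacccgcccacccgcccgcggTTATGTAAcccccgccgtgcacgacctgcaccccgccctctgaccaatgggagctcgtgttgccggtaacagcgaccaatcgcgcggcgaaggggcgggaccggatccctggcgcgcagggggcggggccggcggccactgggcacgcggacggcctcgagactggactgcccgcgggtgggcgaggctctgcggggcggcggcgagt
Nr1d1 promoter: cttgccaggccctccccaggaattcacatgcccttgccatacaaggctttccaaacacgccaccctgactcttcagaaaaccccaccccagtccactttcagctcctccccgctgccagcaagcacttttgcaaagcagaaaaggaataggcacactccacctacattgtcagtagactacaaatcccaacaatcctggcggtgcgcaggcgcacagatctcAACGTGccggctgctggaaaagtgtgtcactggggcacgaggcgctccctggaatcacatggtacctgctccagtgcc
Tef promoter: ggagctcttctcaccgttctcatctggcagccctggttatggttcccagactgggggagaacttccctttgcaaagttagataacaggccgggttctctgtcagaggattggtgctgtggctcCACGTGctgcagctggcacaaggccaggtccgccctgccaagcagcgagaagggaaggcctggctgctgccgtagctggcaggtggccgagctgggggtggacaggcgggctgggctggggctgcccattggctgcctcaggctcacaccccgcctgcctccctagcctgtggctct

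RefSeq promoters were found for 9 of the 10 genes, 14 sequences in all, and 5 genes had at least 1 element in a window. Beside those shown, Per1 had an E-box at 166 bases before its start (chr11:69098699-69098998, + strand), and a second Tef start (chr15:81811164-81811463, + strand) had one at 138 bases. Among 32851 RefSeq promoters of the same length, searched on both strands, 7.15% held the E-box, 4.68% the E-prime box, 1.06% a D-box (TTATGTAA or TTACGTAA), 6.45% a ROR element (TAGGTCA or TGGGTCA) and 1.79% a cyclic AMP response element (TGACGTCA). The E-box and the E-prime box differ in their last letter, and the motifs can lie on either strand. A match describes these letters in this window, and the arrays did not measure binding.

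Arrays fell in 2 runs, named in the raw array names: 9 arrays with median deposited intensities of 76.87 to 82.99, and 4 arrays (wild type array 4, heterozygous array 4, N750F arrays 4 and 5) with medians of 48.2 to 73.3. The targeted gene Rb1 had log2 levels of 7.15 and 7.27 untreated, 8.01 and 8.04 in wild type after DEN, 7.62 and 7.92 in heterozygous, 7.82 to 8.43 in N750F, and 7.92 and 6.57 in knockout-labelled liver. Whether its probe set covers the floxed exon was not known, so this is no check of the deletion. Hepatocyte marker genes had a mean log2 level of 11.11 to 11.54 in every array. Knockout-labelled array 2 stood apart, with 8 of 11 skeletal muscle genes at their highest there and a mean over the muscle list of 8.43, against at most 6.02 elsewhere. Values below are levels on the scale of log2(normalized intensity + 16), which understates changes of dim genes, and a level is compared between groups for the same gene only.

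**Figure D1:**
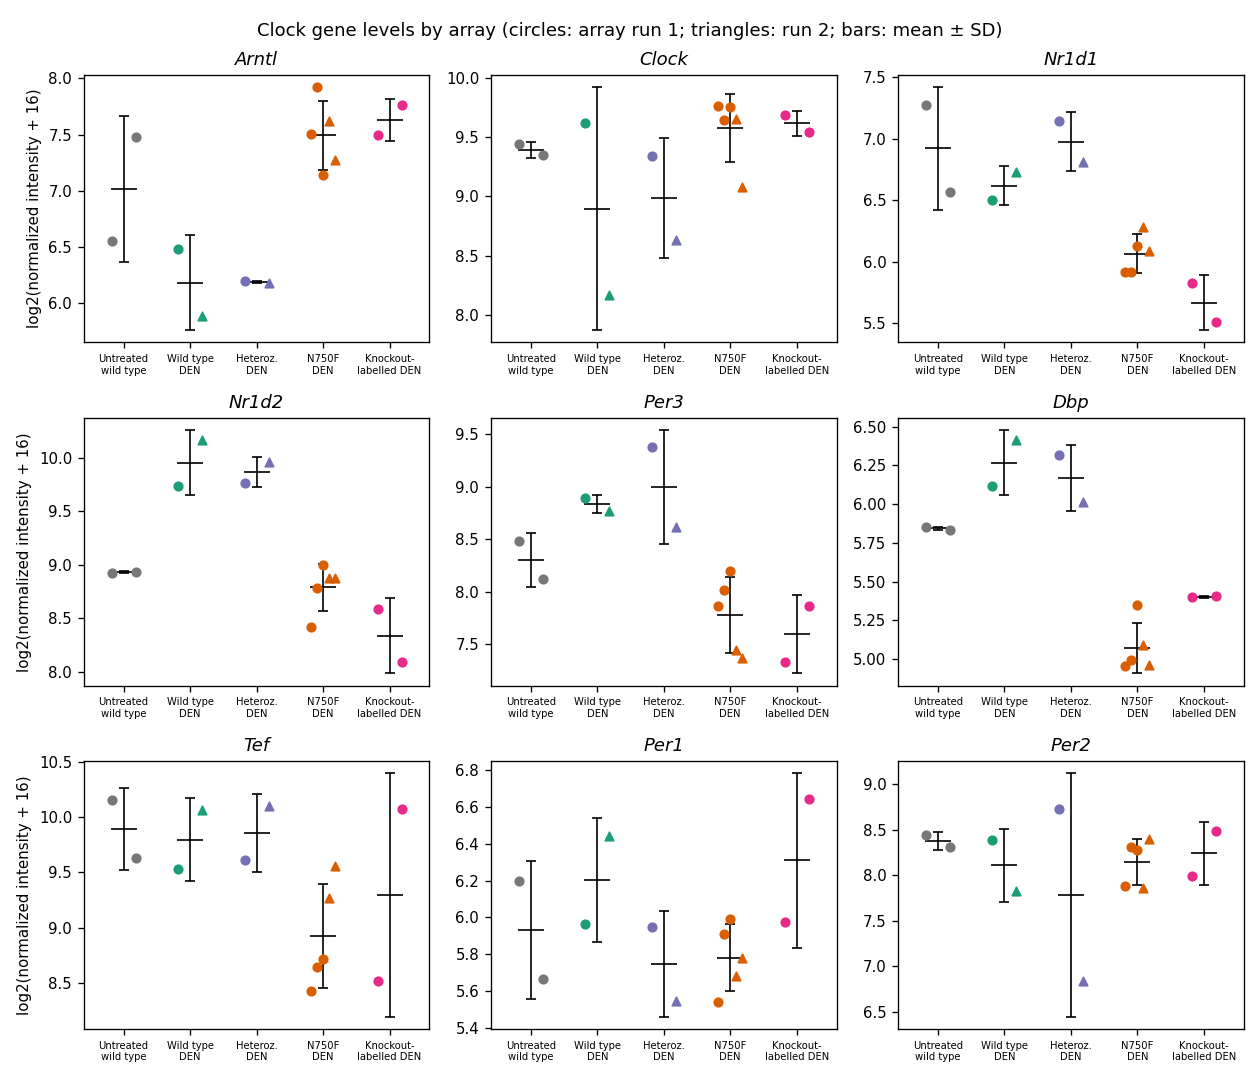
Level of each measured clock gene in each array, as log2(normalized intensity + 16) on the vertical axis, with the 5 groups on the horizontal axis and bars for mean ± SD. Arntl was at 7.14 or more in all 7 N750F and knockout-labelled arrays, where Per3, Nr1d1, Nr1d2 and Dbp were below every wild type and heterozygous array after DEN.

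Arntl, the activator without which the loop stops, had log2 levels of 6.55 and 7.48 in untreated liver. After DEN it was at 6.48 and 5.88 in wild type and at 6.20 and 6.18 in heterozygous liver. In N750F liver its levels were 7.50, 7.92, 7.14, 7.62 and 7.28, and in knockout-labelled liver 7.49 and 7.76. All 7 arrays of the last 2 groups lay above the 4 wild type and heterozygous arrays given DEN, a split without overlap, in either direction, that 2.39% of tested genes showed. Of the untreated arrays, 1 lay just above the wild type and heterozygous values and 1 within the N750F range. The groups ranked, from low to high mean, wild type 6.18 ± 0.42 (SD, n = 2), heterozygous 6.19 ± 0.01, untreated 7.02 ± 0.65, N750F 7.49 ± 0.30 (n = 5) and knockout-labelled 7.63 ± 0.19, where every pair of neighbours overlapped but heterozygous and untreated.

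Clock, the partner of ARNTL, was at 9.44 and 9.34 untreated, 9.62 and 8.17 in wild type, and 9.34 and 8.63 in heterozygous liver after DEN. N750F arrays had levels of 9.76, 9.65, 9.75, 9.65 and 9.08, and knockout-labelled arrays 9.69 and 9.54. Both knockout-labelled arrays lay above both untreated and both heterozygous arrays, heterozygous arrays lay at or below the lower untreated one, and the other pairs of groups overlapped. The 3 lowest values were those of arrays of the second run. Clock was the only tested clock gene for which the term for array run passed the threshold (limma, adjusted p = 0.0359).

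Nr1d1, which encodes REV-ERB alpha, was at 7.27 and 6.57 in untreated liver, 6.50 and 6.73 in wild type and 7.15 and 6.81 in heterozygous liver after DEN. It was at 5.92, 5.92, 6.13, 6.29 and 6.09 in N750F and at 5.83 and 5.51 in knockout-labelled liver. Its 7 lowest values were those of the N750F and knockout-labelled arrays, below all 6 others. Nr1d2, which encodes REV-ERB beta, was at 8.92 and 8.93 untreated and higher, at 9.74 and 10.17, in wild type and, at 9.76 and 9.96, in heterozygous liver after DEN. In N750F arrays it was at 8.42, 8.78, 9.0, 8.88 and 8.87, around the untreated values, and in knockout-labelled arrays at 8.58 and 8.09, below them.

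Per3, the third member of the PER family, was at 8.49 and 8.12 untreated. It was at 8.89 and 8.77 in wild type and at 9.38 and 8.61 in heterozygous liver after DEN, above both untreated arrays. N750F arrays had 7.86, 8.02, 8.20, 7.45 and 7.37 and knockout-labelled arrays 7.33 and 7.86, all 7 below the 4 wild type and heterozygous arrays, with 1 N750F array inside the untreated range. Dbp, the D-site binding protein, was dim, at 5.85 and 5.84 untreated, 6.12 and 6.42 in wild type and 6.32 and 6.02 in heterozygous liver. Its levels were 4.96, 5.0, 5.35, 5.09 and 4.96 in N750F and 5.40 and 5.41 in knockout-labelled liver. Dbp ranked N750F, knockout-labelled, untreated and then the other 2 groups, and only wild type and heterozygous liver overlapped.

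Tef, the thyrotroph embryonic factor, was at 10.15 and 9.63 untreated, 9.53 and 10.06 in wild type, and 9.61 and 10.10 in heterozygous liver. In N750F liver the 3 arrays of the first run had 8.43, 8.64 and 8.72 and the 2 of the second run 9.27 and 9.56. The knockout-labelled arrays differed from each other, at 8.52 and, in the array with muscle transcripts, 10.07. The part of muscle transcripts in that value was not tested.

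Per1 and Per2 showed no such order. Per1 was at 6.20 and 5.66 untreated, 5.97 and 6.44 in wild type, 5.95 and 5.55 in heterozygous, 5.54 to 5.99 in N750F, and 5.98 and 6.64 in knockout-labelled liver, the last being again array 2. Per2 was at 8.45 and 8.31 untreated, 8.39 and 7.83 in wild type, 8.73 and 6.84 in heterozygous, 7.86 to 8.40 in N750F, and 8.00 and 8.48 in knockout-labelled liver. The heterozygous arrays were the highest and the lowest of all 13 for Per2.

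In a limma F-test of any difference among the 5 groups, 4 of the 8 tested clock genes passed an adjusted p of 0.05 (Benjamini-Hochberg over all tested genes), against 2.89% of all tested genes. They were Per3 (adjusted p = 0.0101), Nr1d2 (0.0138), Arntl (0.0354) and Nr1d1 (0.0364). Tef (0.152), Clock (0.365), Per1 (0.508) and Per2 (0.935) did not pass. The clock genes were chosen with earlier results of these data known. A share above that of all genes, here and below, is therefore no independent support for a difference. In the fit without the filter, where 1.96% of genes passed, Dbp had an adjusted p of 0.0165. None of the 4 passed without heterozygous array 3, where the remaining array of a group of 2 was assumed to vary like the other groups, and 2 of the 8 genes passed without wild type array 4, heterozygous array 4, or N750F array 1, 2 or 5. Tef passed when either knockout-labelled array was left out, while Nr1d1 did not pass without array 2, which held muscle transcripts. Each of these fits left 1 knockout-labelled array, whose spread was taken from the other groups. With no term for array run, 1 of the 8 passed, and none did in the first run alone.

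The comparison of each DEN-treated group with untreated wild type liver asked how the clock genes stood a day after DEN. In N750F liver 2 of the 8 fell, against 2.34% of all tested genes that fell and 6.21% called in either direction. Nr1d1 fell by 0.89 ± 0.24 (SE, limma, adjusted p = 0.0466) and Tef fell by 1.24 ± 0.34 (adjusted p = 0.0470). Both calls were at the edge of the threshold. Neither held without either untreated array, either wild type array or N750F array 1, 2, 3 or 5, or with another scaling or an offset of 1, and 1 of the 2 held without heterozygous array 3 or 4 or N750F array 4.

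No clock gene passed in the other 3 comparisons with untreated liver by limma, although at an unadjusted p under 0.05 there were 2 of 8 in wild type (13.7% of all tested genes), 2 in heterozygous (15.6%) and 3 in knockout-labelled liver (9.48%). In wild type 0.689% of all tested genes passed. Nr1d2 differed by 0.91 ± 0.27 there (adjusted p = 0.150), Per3 by 0.80 ± 0.28 (0.226) and Arntl by -0.75 ± 0.35 (0.370). In heterozygous liver, where 1.40% passed, the values were similar in size: 0.82 ± 0.27 for Nr1d2 (adjusted p = 0.157), 0.96 ± 0.28 for Per3 (0.111) and -0.74 ± 0.35 for Arntl (0.334). In knockout-labelled liver 0.0869% passed, and Nr1d1 had the largest difference of the clock genes, -1.25 ± 0.28 (adjusted p = 0.126), followed by Per3 with -0.71 ± 0.27 (0.412). Tef differed by -0.60 ± 0.39 (adjusted p = 0.679). That difference was -1.38 without knockout-labelled array 2 and 0.180 without knockout-labelled array 1, so its sign depended on the array kept. These 4 comparisons share the 2 untreated arrays. Dbp, without the filter, differed from untreated by 0.44 ± 0.26 in wild type, 0.35 ± 0.26 in heterozygous, -0.76 ± 0.22 in N750F (adjusted p = 0.0706) and -0.44 ± 0.25 in knockout-labelled liver.

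**Figure D2:**
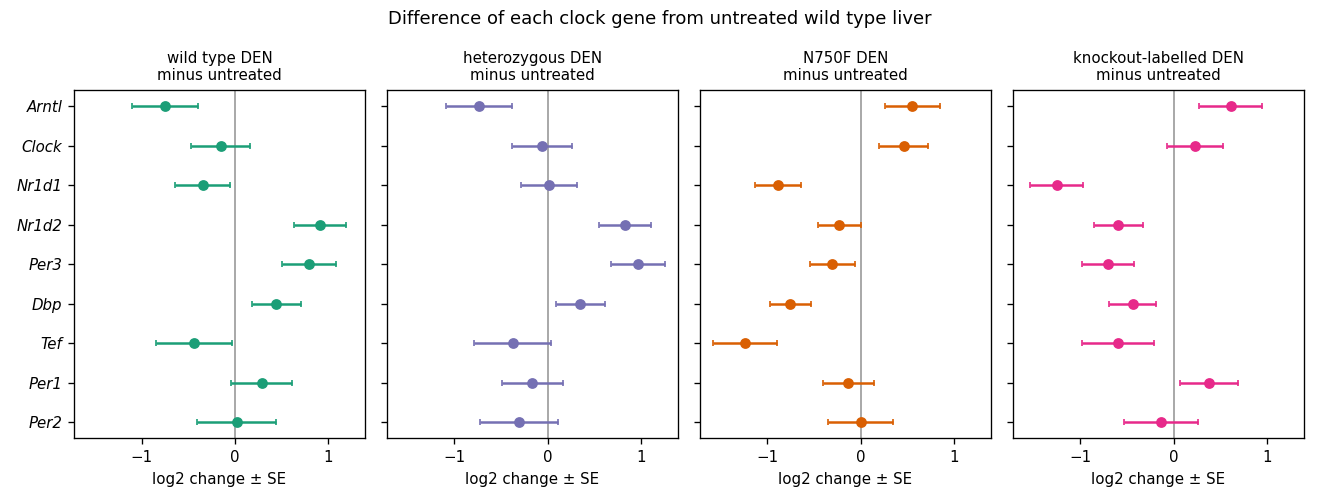
Log2 change of each clock gene from untreated wild type liver (horizontal axis, bars are ± SE) in the 4 DEN-treated groups, from the limma fit without the filter on dim genes, so that Dbp is included. Nr1d2, Per3 and Dbp lie above 0 in the wild type and heterozygous panels and below 0 in the N750F and knockout-labelled panels, and Arntl lies the other way.

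The comparisons among genotypes after DEN asked whether Rb1 status went with clock gene levels. Against wild type, N750F liver had higher Arntl and lower Per3 and Nr1d2, 3 of 8 clock genes against 1.42% of all tested genes. Arntl rose by 1.30 ± 0.28 (adjusted p = 0.0375), while Per3 fell by 1.11 ± 0.22 (0.0288) and Nr1d2 fell by 1.14 ± 0.22 (0.0195). Dbp fell by 1.20 ± 0.21 (adjusted p = 0.0129) in the fit without the filter, in which 1.00% of genes passed. None of the 3 held without wild type array 4 or N750F array 5, 1 held without N750F array 2 or 4, and Arntl alone was lost without either heterozygous array or N750F array 1. None held in the first run alone, and 1 did with no term for array run. The Dbp call was lost without wild type array 4 (adjusted p = 0.435) and in the first run alone (0.501), and its change was -1.75 with an offset of 1 and -0.72 with an offset of 50.

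Against heterozygous liver the N750F arrays differed in the same 3 genes, where 1.64% of all tested genes passed. Arntl rose by 1.29 ± 0.28 (adjusted p = 0.0338), Per3 fell by 1.27 ± 0.22 (0.00986) and Nr1d2 fell by 1.05 ± 0.22 (0.0245). Dbp, without the filter (1.29% passed), fell by 1.102 ± 0.209 (adjusted p = 0.0155). Nr1d1 differed by -0.90 ± 0.23 (adjusted p = 0.0805) and did not pass. None of the 3 calls held without heterozygous array 3 or 4, in the first run alone, or with the level of Y-linked genes in the model, and 1 held without N750F array 2, 4 or 5. Without N750F array 1, Arntl alone was lost. The Dbp call was lost without heterozygous array 3 (adjusted p = 0.157) or 4 (0.150), in the first run alone (0.221) and with the level of Y-linked genes (0.160), and Dbp differed by -0.65 with an offset of 50. This comparison shares its N750F arrays with the previous one.

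Knockout-labelled liver had lower Per3 (fell by 1.67 ± 0.28, adjusted p = 0.0363) and lower Nr1d2 (fell by 1.42 ± 0.27, adjusted p = 0.0472) than heterozygous liver, 2 of 8 against 0.0803% of all tested genes that fell and 0.301% called in either direction. Both calls were lost without heterozygous array 3 or 4 or N750F array 2, 3 or 5, and 1 remained when any other single array was left out. Neither held under another scaling, with an offset of 1 or without the run term. Nr1d1 differed by -1.27 ± 0.29 (adjusted p = 0.115) and Arntl by 1.35 ± 0.35 (0.173). Against wild type, where 0.0468% of genes passed, no clock gene did in knockout-labelled liver: Nr1d2 differed by -1.51 ± 0.27 (adjusted p = 0.0719), Per3 by -1.50 ± 0.28 (0.0822) and Arntl by 1.36 ± 0.35 (0.243). At an unadjusted p under 0.05 there were 4 of 8, against 8.55% of all tested genes. With an offset of 50, 2 clock genes passed in this comparison. With 1 knockout-labelled array alone, whose own spread is then not measured but taken from the other groups, Nr1d2 passed without array 1 (adjusted p = 0.0355) and Per3 without array 2 (0.0235), so that each array gave another gene.

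Heterozygous and wild type liver differed by -0.46 for Per1, 0.36 for Nr1d1, -0.33 for Per2 and less than that for the others. None passed in the limma fit or had an unadjusted p under 0.05, against 0.00669% and 6.88% of all tested genes. N750F and knockout-labelled liver differed by 0.40 ± 0.24 for Per3 (95% interval -0.11 to 0.90), -0.06 ± 0.29 for Arntl (-0.69 to 0.57) and 0.37 ± 0.23 for Nr1d2 (-0.12 to 0.85), again with no call among the clock genes. No gene of the 14953 passed in the limma fit there (0%), while 1823 genes (12.2%), none of them a clock gene, had an unadjusted p under 0.05. Without knockout-labelled array 1, the array with muscle transcripts alone stood for that group, with its spread taken from the other groups, and then 511 genes passed, among them Tef (-1.42 ± 0.29, adjusted p = 0.0207).

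A further comparison set the 7 N750F and knockout-labelled arrays against the 4 wild type and heterozygous arrays after DEN, which the labels describe as holding functional Rb1 alleles. It was added after the levels had been seen, so its p-values are no independent support for the split. In this fit 4 of 8 clock genes passed, against 1.71% of all tested genes. Arntl rose by 1.32 ± 0.23 (adjusted p = 0.00702), Per3 fell by 1.39 ± 0.18 (0.00137), Nr1d2 fell by 1.28 ± 0.18 (0.00178) and Nr1d1 fell by 0.90 ± 0.19 (0.0241). Dbp fell by 0.99 ± 0.17 (adjusted p = 0.00705) in the fit without the filter, in which 1.33% of genes passed. Clock differed by 0.45 ± 0.20 (95% interval 0.02 to 0.88, adjusted p = 0.427) and Tef by -0.51 ± 0.27 (-1.08 to 0.06, adjusted p = 0.511). Per1 (0.06, interval -0.39 to 0.51) and Per2 (0.07, interval -0.51 to 0.66) did not pass. Per3 and Nr1d2 held with each array left out in turn. Arntl was lost without heterozygous array 3 (0.0730), and Nr1d1 without that array, either wild type array, N750F array 5 or knockout-labelled array 2 (0.0610 to 0.207). The Tef difference was -0.90 without knockout-labelled array 2 and -0.124 without knockout-labelled array 1. None of the 4 calls held in the first run alone. The Dbp call was lost without heterozygous array 3 (adjusted p = 0.0849) and in the first run alone (0.107), and Dbp differed by -0.60 with an offset of 50.

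**Figure D3:**
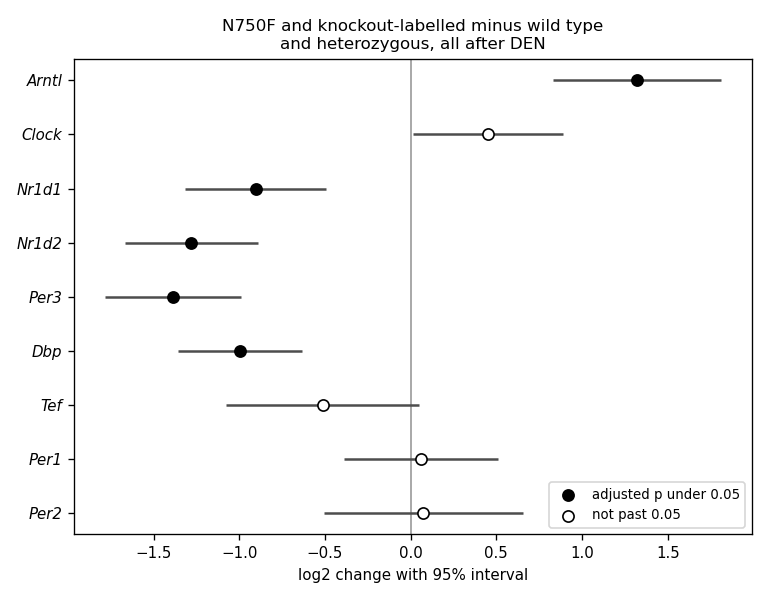
Log2 change of each clock gene (horizontal axis, lines are 95% intervals) between 7 N750F and knockout-labelled arrays and 4 wild type and heterozygous arrays, all after DEN, from the limma fit without the filter. Arntl is to the right of 0, Nr1d1, Nr1d2, Per3 and Dbp are to the left, and the intervals of Per1, Per2 and Tef include 0.

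Within each array run the sizes were alike for most of these genes. In the first run (5 against 2 arrays) Arntl differed by 1.23, Per3 by -1.28, Nr1d2 by -1.18, Nr1d1 by -0.97 and Dbp by -1.0, each without overlap. In the second run (2 against 2) the differences were 1.42, -1.28, -1.19, -0.58 and -1.19 in the same order, again without overlap. Clock, Per2 and Tef also did not overlap there, which left Per1 alone with overlap. The share of all genes that split so within a run was not counted, so the lack of overlap has no background beside it. The split itself was chosen after the levels had been seen. Clock differed by 0.20 in the first run and 0.96 in the second, and Per2 by -0.37 and 0.80, so the runs did not share a direction for Per2. Tef differed by -0.69 and -0.67.

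In adult mouse liver, Arntl stands in roughly opposite phase to outputs such as Nr1d1, Dbp and Per3, which was not tested for mice of 14 days. Livers taken at some other times of day can differ in opposite directions in activators and outputs. Each array was therefore described by the mean deviation of both arms from the gene means over all arrays. The activator arm held Arntl and Clock, the output arm Nr1d1, Nr1d2, Per3, Dbp and Tef, with Per1 and Per2 kept apart because they also answer acute signals, and no test was made of these scores. The output score minus the activator score was 0.61 and -0.12 in untreated liver, 0.58 and 1.88 in wild type, and 1.15 and 1.37 in heterozygous liver after DEN. It was -1.04, -1.04, -0.50, -0.77 and -0.33 in N750F and -0.99 and -0.79 in knockout-labelled liver. All 7 of the latter arrays were below 0, under the lower untreated array at -0.12. In the comparisons of N750F and of knockout-labelled liver with untreated, wild type and heterozygous liver, both activators were positive and all 5 outputs negative. Clock and Tef did not keep these signs throughout. Without knockout-labelled array 1, Tef in knockout-labelled liver differed by 0.180, 0.617 and 0.558 from untreated, wild type and heterozygous liver. Clock differed by -0.007 in knockout-labelled against wild type liver without wild type array 4, and also in the first run alone. Per1 and Per2, also E-box targets, did not keep to the direction of the outputs, with none of their differences past the threshold. Per1 differed by 0.38, 0.09 and 0.55 in knockout-labelled against untreated, wild type and heterozygous liver. Without knockout-labelled array 2, which held muscle transcripts, these were 0.045, -0.244 and 0.213. Per2 differed by 0.305 in N750F against heterozygous liver. That value was -0.509 without heterozygous array 4 and 1.197 without heterozygous array 3, so its sign depended on a single array. The Per1 values without knockout-labelled array 2 stayed positive against untreated and heterozygous liver and changed sign against wild type. Per1 also differed by 0.032 in N750F, and Per2 by 0.170 in knockout-labelled, against heterozygous liver. In wild type against untreated liver both activators were negative and 3 of the 5 outputs positive, and in heterozygous liver 4 of 5. N750F against knockout-labelled liver gave 1 activator of each sign. The labels give no time of day, so group and sampling time cannot be told apart in these data.

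**Figure D4:**
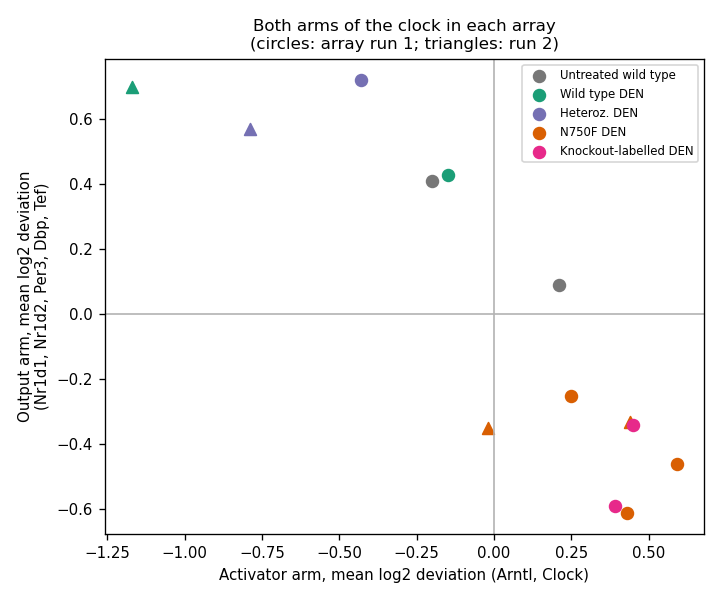
Mean log2 deviation of the activator arm (Arntl and Clock, horizontal axis) and of the output arm (Nr1d1, Nr1d2, Per3, Dbp and Tef, vertical axis) from each gene's mean over 13 arrays, 1 point per array. N750F and knockout-labelled arrays had output scores of -0.61 to -0.25 and lie at the lower right, but for N750F array 5, with an activator score of -0.02. Wild type and heterozygous arrays after DEN lie at the upper left, with output scores of 0.43 to 0.72. Untreated array 1 (activator -0.20, output 0.41) also lies at the upper left, and untreated array 2 (0.21 and 0.09) at the upper right.

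The arrays fell into separate clusters for these genes (Dbp at 4.96 to 5.41 in 7 arrays and 5.84 to 6.42 in 6), so correlations over all arrays are not given as results. Of 10 gene pairs planned, 9 had values. Over deviations from group means (13 arrays, exact permutation within groups, two-sided), Arntl and Nr1d1 had a Pearson r of -0.71 (p = 0.0828, adjusted over 9 pairs 0.408) and a Spearman rho of -0.58 (p = 0.177), and r was -0.47 without the 2 arrays farthest from the median of Arntl. Within groups no pair passed, and the lowest adjusted p was 0.408 for r and 0.314 for rho. Within the 7 N750F and knockout-labelled arrays the adjusted p was 0.871 for r in every pair. Within the 6 untreated, wild type and heterozygous arrays, Arntl and Nr1d2 had an r of -0.83 (exact permutation, p = 0.00556, adjusted 0.05, not under the threshold) and a rho of -0.94 (p = 0.0167, adjusted 0.15), and r was -0.78 without the 2 farthest arrays. Those 6 arrays come from 3 groups, of which untreated liver had both low Nr1d2 values.

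As a description over the 13 arrays, with no test, the genes whose levels followed Dbp most closely among 14008 ranked genes were Cyp2c50 (r = 0.919), a cytochrome P450, then Mfsd4b1 (0.887), Gpr119 (0.873), Mgst1 (0.866), a microsomal glutathione transferase, and Cdc42ep4 (0.861). Per3 stood at rank 6 (0.852) and Nr1d2 at rank 25 (0.797). The genes that ran most against Dbp were Cdca3 (-0.922), Myo5c (-0.922), Cenpf (-0.915), Kif18a (-0.914) and Wdhd1 (-0.912). Cdca3, Cenpf and Kif18a serve mitosis, and Wdhd1 serves DNA replication. Arntl ran most closely with Cenpf (0.876), Clpx (0.873), Ccdc18 (0.872), Kitl (0.870) and Antxr1 (0.864). It ran most against Cnih2 (-0.899), Nr1d2 (-0.895), Mgst1 (-0.860), Ggn (-0.855) and Cyp2c50 (-0.850), so that Nr1d2 was the second of 14007 genes from the low end. The points share the split of groups described above.

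Other genes of the clock were taken as a list of 19, of which 17 were on the array and 16 were tested: the CRY repressors, kinases and ubiquitin ligases that set PER and CRY stability, and other factors of the loop. Against untreated liver 1 rose and 1 fell in wild type, 1 rose in heterozygous, 3 rose in N750F and none passed in knockout-labelled liver, where the shares of all tested genes called in either direction were 0.689%, 1.40%, 6.21% and 0.0869%. In the comparison of the 7 and 4 arrays 2 rose (1.71% of all tested genes were called), the other 14 missed the threshold, and the list's median was 0.25, against -0.01 over all genes tested. Usp2, a deubiquitinase that acts on clock proteins and is itself a rhythmic liver transcript, was at 6.70 and 6.99 untreated and at 7.95 and 9.14 in wild type after DEN. It rose by 2.06 ± 0.28 in wild type (adjusted p = 0.00649), by 1.60 ± 0.28 in heterozygous (0.0150) and by 0.99 ± 0.23 in N750F liver (0.0275). Usp2 fell by 1.07 ± 0.22 in N750F against wild type (adjusted p = 0.0318). Every DEN array was above both untreated arrays for Usp2, the lowest being N750F array 5, at 7.0.

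Btrc, a ubiquitin ligase subunit that marks PER proteins for degradation, fell by 1.84 ± 0.33 in wild type against untreated liver (adjusted p = 0.0249) and rose by 0.95 ± 0.21 in the comparison of the 7 and 4 arrays (0.0338). Timeless and Tipin form a complex at replication forks. Timeless rose by 1.22 ± 0.33 in N750F against untreated liver (adjusted p = 0.0427). Tipin rose by 0.97 ± 0.25 there (0.0365), by 1.29 ± 0.24 against wild type (0.0155) and by 0.82 ± 0.19 in the comparison of the 7 and 4 arrays (0.0467). Without knockout-labelled array 2, the 2 list members that passed in the comparison of the 7 and 4 arrays were Timeless and Tipin, and Btrc did not. Cry1, a repressor that partners PER, was at 7.73 and 8.03 untreated. After DEN it was at 8.46 to 9.10 in N750F, and at 8.69 and 8.87 in knockout-labelled liver. It did not pass in N750F against untreated liver (0.86 ± 0.27, adjusted p = 0.0772), nor in the comparison of the 7 and 4 arrays. Its wild type and heterozygous levels after DEN are shown only in the plot of Usp2, Hlf and Cry1 by array. The values given here therefore do not separate a change shared by all DEN groups from a change in N750F and knockout-labelled liver alone. Hlf, the third PAR-domain factor beside Dbp and Tef, was at 7.93 and 7.81 untreated, 8.79 and 9.53 in wild type, 8.78 and 8.70 in heterozygous, 7.82 to 8.49 in N750F, and 8.01 and 9.16 in knockout-labelled liver, the last in the array with muscle transcripts. It did not pass in wild type against untreated liver (1.30 ± 0.38, adjusted p = 0.141) or in the comparison of the 7 and 4 arrays (-0.59 ± 0.24, adjusted p = 0.369).

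**Figure D5:**
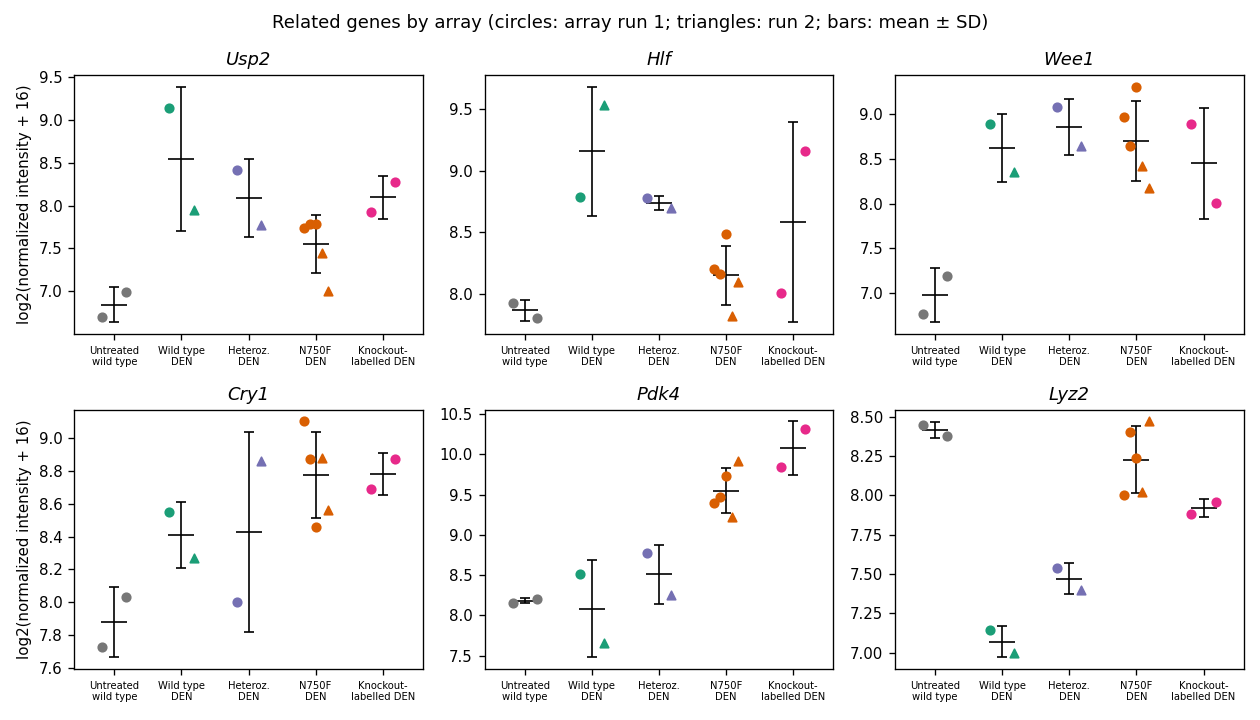
Levels by array, as log2(normalized intensity + 16), of Usp2, Hlf and Cry1 of the clock, Wee1 and Pdk4 of rhythmic and fasting outputs, and Lyz2 of macrophages, with bars for mean ± SD. Usp2 and Wee1 were higher in every DEN array than in both untreated arrays, and Pdk4 and Lyz2 were higher in all 7 N750F and knockout-labelled arrays than in the 4 wild type and heterozygous arrays after DEN.

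Of 23 listed liver genes known for daily rhythms, 16 were tested. Wee1, a kinase that holds back mitosis and has E-box control, rose in 3 comparisons with untreated liver: by 1.94 ± 0.33 in wild type (adjusted p = 0.0226), 2.18 ± 0.33 in heterozygous (0.00634) and 1.96 ± 0.27 in N750F liver (0.00478). These comparisons share the untreated arrays, which were at 6.76 and 7.19, against 8.01 to 9.31 in all DEN arrays. Nr1i3, the xenobiotic receptor CAR, fell by 1.42 ± 0.34 in N750F against untreated (adjusted p = 0.0307) and by 1.51 ± 0.33 against heterozygous liver (0.0338). Alas1, the first enzyme of haem synthesis, fell by 1.90 ± 0.38 in N750F against wild type (adjusted p = 0.0246), where Insig2, a brake on sterol synthesis, rose by 1.41 ± 0.31 (0.0375). Cyp7a1, the rate-limiting enzyme of bile acid synthesis, fell by 1.53 ± 0.35 in the comparison of the 7 and 4 arrays (adjusted p = 0.0437), in which 15 of the 16 did not pass and the list's median was -0.02. Without knockout-labelled array 2, the 1 gene that passed there was Alas1, and Cyp7a1 did not.

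Genes that answer glucocorticoid and acute signals were read because such signals also move Per1 and Per2. Of 14 tested, 2 fell in wild type, 2 in heterozygous and 3 in N750F against untreated liver, and none passed in knockout-labelled liver, against 0.689%, 1.40%, 6.21% and 0.0869% of all tested genes in either direction. Mt1, a metallothionein, fell, with changes of -2.26 ± 0.34 in wild type (adjusted p = 0.0109), -2.36 ± 0.34 in heterozygous (0.00551) and -2.77 ± 0.29 in N750F liver (0.000629). Mt2 fell too, with changes of -1.60 ± 0.29 (adjusted p = 0.0278), -2.11 ± 0.29 (0.00451) and -1.99 ± 0.24 (0.00196) in the same order, and rose by 1.71 ± 0.29 in knockout-labelled against heterozygous liver (0.0363), a call lost without knockout-labelled array 2. Dusp1, a phosphatase induced by stress signals, fell by 1.35 ± 0.33 in N750F against untreated liver (adjusted p = 0.0306). No gene of the list passed in the comparison of the 7 and 4 arrays, in which N750F and knockout-labelled liver lay on opposite sides: the list's median difference from wild type was -0.45 in N750F and 0.60 in knockout-labelled liver, against -0.01 over all genes in both. The mean level of the list was 7.70 to 8.22 in N750F and 8.54 to 9.11 in knockout-labelled arrays.

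Of 13 tested genes that follow feeding and fasting, none passed in wild type or heterozygous against untreated liver (0.689% and 1.40% of all tested genes). In N750F and in knockout-labelled liver 1 passed, against 6.21% and 0.0869% of all tested genes. The share was 1.42% for N750F against wild type liver. Pdk4, a kinase that turns off glucose oxidation in fasting, rose by 1.47 ± 0.27 in N750F (adjusted p = 0.0140) and by 1.89 ± 0.31 in knockout-labelled liver (0.0404) against untreated, and by 1.43 ± 0.26 in N750F against wild type liver (0.0155). It was at 8.16 and 8.21 untreated, 7.66 to 8.77 in wild type and heterozygous, and 9.22 to 10.31 in the other 7 arrays. In the comparison of the 7 and 4 arrays, where 1.71% of all tested genes were called, Pdk4 rose by 1.43 ± 0.21 (adjusted p = 0.00280). G6pc, the last enzyme of glucose release, rose there by 0.98 ± 0.23 (adjusted p = 0.0432), while 11 did not pass. Without knockout-labelled array 2, Pdk4 passed there and G6pc did not. The animals' feeding state is not in the labels.

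Mean levels of macrophage and red cell precursor markers went with the same split of arrays, while those of other cell types overlapped. Over lymphoid and neutrophil markers the mean after DEN was 6.02 to 6.45 in heterozygous and 6.14 to 6.96 in N750F liver. Over stellate and endothelial markers it was 7.32 to 8.02 in heterozygous and 7.72 to 8.23 in N750F liver. The mean over 8 Kupffer cell and macrophage genes was 7.91 to 8.30 untreated, 6.89 to 7.01 in wild type and 7.25 to 7.31 in heterozygous liver after DEN, 7.68 to 8.27 in N750F and 7.54 to 7.90 in knockout-labelled liver. Against untreated liver, 3 of the 8 fell in wild type, 1 in heterozygous and none in N750F or knockout-labelled liver. The shares of all tested genes called there, in either direction, were 0.689%, 1.40%, 6.21% and 0.0869%. In the comparison of the 7 and 4 arrays, where 1.71% of all tested genes were called, 2 of the 8 rose and 6 did not pass. The 2 were Cd5l (0.95 ± 0.21, adjusted p = 0.0384) and Lyz2 (0.79 ± 0.16, adjusted p = 0.0241). Without knockout-labelled array 2, neither of these 2 passed there, nor did the other 6. The mean over the 3 erythroid genes on the array, of 7 listed, was 6.81 to 7.10 untreated, 5.86 to 6.22 in wild type, 6.30 to 6.33 in heterozygous, 6.44 to 6.77 in N750F and 6.65 to 6.82 in knockout-labelled liver, so that the 7 arrays did not overlap the 4. Of the 2 erythroid genes tested, neither passed in the comparison of the 7 and 4 arrays: Slc4a1, the red cell anion exchanger, differed by 0.85 ± 0.20 (adjusted p = 0.0523), and Alas2, the erythroid enzyme of haem synthesis, by 0.59 ± 0.20 (0.218). In bulk liver, fewer cells of a type and less RNA per cell cannot be told apart. The part of these cells in the clock gene values was not tested.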

How the data were processed

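Total RNA of frozen liver was amplified with WT-Ovation Pico and read on 1-colour Affymetrix arrays, as the labels' protocols describe. The authors deposited 1 linear intensity for each of 35556 probe sets on 13 arrays (0.000427 to 17831). RMA and Affymetrix Expression Console 1.1 are named in the submitters' processing notes, with no role. The number of arrays limits the precision.

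Intensities were quantile-normalized over the arrays, 16 was added and log2 taken (limma 3.58.1, R 4.3.3). A gene was read from its single-symbol probe set of highest mean. Genes under the 25th percentile of mean level (5.94) were left out. A single limma model held the 5 groups and array run (7 residual degrees of freedom), with p-values adjusted by Benjamini-Hochberg within a comparison over all genes tested. It was tested on simulated data. The model made 10 planned comparisons and 1 added after the values were seen. Permutations and promoter searches used Python 3.11.15 and scipy 1.17.1.

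Members and lists were chosen with earlier results of these data known. All members were described, and of other lists up to 4 called genes per comparison by smallest p, except Cry1 and Hlf, chosen after their values were seen. Likeness was ranked by Pearson r, 5 genes per side, leaving out small RNAs, predicted loci and sex-linked marker genes. The alternatives were no run term, the first run alone, 2 other scalings, offsets of 1 and 50, no filter, a replicate block, the level of Y-linked genes as covariate and each array left out. The counts of the gene lists without knockout-labelled array 2 were chosen after seeing the data. No gene had a second probe set to try.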

Additional observations from a re-analysis of the deposited data

Results flagged for a closer look

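Clock in N750F liver had a lowest array far from the others: N750F array 5 was at a log2 level of 9.08, while the other 4 lay between 9.65 and 9.76. Array 5 belongs to the second array run, and the term for array run passed the threshold for Clock (limma, adjusted p = 0.0359), as for 2187 of all 14953 tested genes. The gap was set against Dixon's limit, which chance passes in a small share of groups, for the 5 N750F arrays only, since the other groups held 2 arrays each.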

How the results depend on the processing

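None of the 14 called values of clock genes changed direction under any alternative. All 14 were called with an offset of 50, 11 without the filter, 9 with each other scaling and with an offset of 1, 7 with Y-linked level, 6 without the run term, none in the first run alone, and 4 to 13 with 1 array left out. Numbers of clock genes called were as follows. For any difference among groups (4), 1 without the run term, 0 in the first run, 2 without normalization, and 0 to 5 with 1 array left out. For N750F against untreated (2), 0 without the run term, in the first run, without normalization, with median scaling, an offset of 1, no filter or Y-linked level, and 0 to 2 with 1 array left out. For N750F against wild type (3), 1 without the run term, 0 in the first run, and 0 to 3. For N750F against heterozygous (3), 1 without the run term, 0 in the first run or with Y-linked level, and 0 to 3. For knockout-labelled against heterozygous (2), 1 without the filter, 0 without the run term, in the first run, with either other scaling, an offset of 1 or Y-linked level, and 0 to 1. For knockout-labelled against wild type (0), 2 with an offset of 50 and 0 to 1. For N750F against knockout-labelled (0), 0 to 1. For the 7 against 4 arrays (4), 0 in the first run and 2 to 4. With a replicate block in place of array run, 0 clock genes were called in every one of these comparisons, and likewise with the knockout numbers crossed, an alternative chosen after seeing the data. With the block, Dbp had an adjusted p of 0.186 in N750F against wild type, 0.262 against heterozygous and 0.484 in the 7 against 4 arrays. The labels do not say that numbers pair samples. In wild type and heterozygous liver the numbers coincide with the run, and untreated and knockout-labelled arrays of one number deviated from their group means with r = -0.10. The Pearson r of Dbp and Tef was -0.039 over deviations from group means, against 0.64 over all arrays. The cause of these changes was not tested, except that the first run alone holds fewer arrays. Groups of 2 arrays limit every comparison.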
